A study of Mus musculus with 16 samples.

Results

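The genes described here are 9 genes of the plasma cell program, Irf4, Prdm1, Xbp1, Mzb1, Jchain, Sdc1, Tnfrsf17, Pou2af1 and Derl3, a list given by name and matched by symbol to the 53465 genes of a bulk RNA-seq count table. All 9 were found and all 9 passed the filter on low counts, Tnfrsf17 and Derl3 only through the 2 responder tumors described below. The table covered 16 MC38 tumors, each from another mouse. MC38 cells, derived from a mouse colon adenocarcinoma, had been injected under the skin of the right flank of female C57BL/6 mice aged 6 to 8 weeks, so that an immunocompetent host of the same strain supplied the immune cells. Mice whose tumor had reached 150 to 250 mm3 on day 16 received 200 µg of antibody on days 16 and 20, and tumors were taken on day 21. The 3 groups were IgG control (8 tumors, control antibody), aPD-1 non-responder (NR, 6 tumors) and aPD-1 responder (R, 2 tumors), the latter 2 both given an antibody that blocks the checkpoint receptor PD-1. Response was assigned by CD8 T cell staining and not by tumor size, so T cell genes are not independent of the grouping. Tumors carry their mouse numbers as replicate numbers, with IgG controls 1 to 8, non-responders 9 to 14 and responders 15 and 16.

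Plasma cells are the antibody-secreting end stage of B cell differentiation. A B cell that commits to this fate loses much of its B cell surface equipment, enlarges its endoplasmic reticulum and devotes most of its transcription to immunoglobulin. Irf4, Prdm1 (Blimp-1) and Xbp1 are the transcription factors of this switch, and Pou2af1 encodes a coactivator of transcription. The other genes of the list serve antibody assembly, protein quality control or survival. Several of the 9 genes are not restricted to plasma cells: Irf4 and Prdm1 are used by activated T cells and myeloid cells, Xbp1 by secretory and stressed cells of many kinds, Sdc1 by epithelial and tumor cells, and Pou2af1 by B cells of all stages. These are examples, and none of the 9 is taken here as a marker of plasma cells alone.

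Libraries held 26603497 to 39948901 counts (median 34105807.5), and levels are given as CPM, counts per 1000000 of the TMM-scaled library total. The mitochondrial share of counts was 2.52% to 3.25% in 13 tumors and 7.60%, 6.00% and 5.73% in IgG control replicate 1 and non-responder replicates 9 and 14. Fold changes came from the quasi-likelihood test of edgeR, fitted once to the 16 tumors, with Benjamini-Hochberg adjustment over 18251 genes. Being called means an adjusted p under 0.05 together with a log2 fold change larger than 1 in either direction. The labelled cell type, colorectal carcinoma, was checked with 5 genes of simple epithelium: Epcam, Krt8, Krt18 and Krt19 were each below 2 CPM in all 14 IgG control and non-responder tumors, so these 4 markers were nearly absent there, while Cdh1 (E-cadherin) measured 3.75 to 8.12 CPM.

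By GRCm38 coordinates, the transcription factor genes Irf4, Prdm1 and Xbp1 lie at chr13:30749226-30766976 (plus strand), chr10:44437177-44528501 (minus) and chr11:5520659-5525893 (plus). The coactivator gene Pou2af1 lies at chr9:51213708-51240080 (plus). The genes of antibody assembly and protein quality control lie at chr5:88519809-88527891 (minus) for Jchain and chr10:75893413-75895941 (plus) for Derl3. The surface protein genes Sdc1 and Tnfrsf17 lie at chr12:8771323-8793715 (plus) and chr16:11313812-11320074 (plus). Counts were summed over all exons of a gene, so they do not separate isoforms, including the spliced and unspliced forms of Xbp1.

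Promoter windows of 250 bases upstream of the transcription start were available from RefSeq (GRCm38.p6) for 8 of the 9 genes. They were searched on both strands for 3 sets of letters: the octamer ATGCAAAT, which Pou2af1 helps Oct proteins to use, the unfolded protein response element TGACGTGG, which Xbp1 protein can bind, and the interferon regulatory factor core AANNGAAA, which factors of the Irf4 family can bind. The octamer was in 0 of the 8 windows and in 1.6% of all 32851 windows. The unfolded protein response element was in 1 window, that of Pou2af1, beginning at position -61 counted from the start, and in 0.563% of all windows. The interferon regulatory factor core was in 2 windows, those of Jchain at -86 and Tnfrsf17 at -101, and in 21.3% of all windows. The 3 windows that held a match are shown because all 3 genes were called higher in the responders; capitals mark the matched letters, read on the strand of the gene, and no match overlapped another. The windows are chr9:51213440-51213689 for Pou2af1 (plus strand), chr5:88527898-88528147 for Jchain (minus) and chr16:11313559-11313808 for Tnfrsf17 (plus). A match describes letters only and not binding.
Pou2af1: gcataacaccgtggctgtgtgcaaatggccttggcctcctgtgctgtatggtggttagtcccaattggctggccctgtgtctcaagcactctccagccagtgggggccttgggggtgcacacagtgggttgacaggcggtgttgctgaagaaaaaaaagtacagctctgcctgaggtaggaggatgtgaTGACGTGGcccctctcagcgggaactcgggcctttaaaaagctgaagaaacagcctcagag
Jchain: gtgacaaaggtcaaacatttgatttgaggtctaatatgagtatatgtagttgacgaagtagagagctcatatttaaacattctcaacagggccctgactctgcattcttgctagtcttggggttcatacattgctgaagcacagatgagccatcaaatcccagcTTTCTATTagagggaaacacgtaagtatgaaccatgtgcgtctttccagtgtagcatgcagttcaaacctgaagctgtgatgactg
Tnfrsf17: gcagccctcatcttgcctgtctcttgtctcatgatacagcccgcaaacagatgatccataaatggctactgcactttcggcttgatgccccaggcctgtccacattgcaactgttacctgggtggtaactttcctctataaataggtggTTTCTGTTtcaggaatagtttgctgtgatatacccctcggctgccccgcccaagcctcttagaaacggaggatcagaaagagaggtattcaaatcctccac

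The first question was how these genes stood in the responders. The 6 genes Pou2af1, Jchain, Mzb1, Derl3, Irf4 and Tnfrsf17 were higher in the responders than in the non-responders by 20.0-fold to 266-fold, Xbp1 was higher by 1.45-fold, and Prdm1 and Sdc1 overlapped between the groups. Against non-responders, 6 of 9 genes were called higher, where 12.5% of all genes tested were. Against IgG controls, 6 of 9 were called higher, where 14.3% of all genes tested were, and the 2 comparisons share the 2 responders. With Xbp1, 7 of 9 passed the adjusted p in the upward direction in each comparison, beside 15.4% and 17.7% of all genes. For the same 7 genes, both responders lay above all 14 other tumors, which held for 16.7% of all genes. Against each group alone the 7 were again above, beside 21.5% of all genes for non-responders and 19.3% for IgG controls. None was called lower, a call that 0.663% and 0.641% of all genes received. The 9 genes were chosen with earlier results of these data known, so these shares are a description and not a test of the list. Irf4 is also used by activated T cells, and the groups rest on CD8 T cell staining. Tnfrsf17 and Derl3, with at most 5 and 11 counts in each other tumor, passed the low-count filter through the 2 responders alone. For these 2 genes a test was possible only because they were high there, so their calls add little to the counts above. The median log2 fold change over the 9 genes was 4.47 against non-responders and 5.06 against IgG controls, where over all genes it was 0.02 and -0.02. In bulk tissue, more cells of a type and more RNA per cell cannot be told apart. The 16 tumors came from separate mice, but the responder group holds only 2.

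**Figure D1:**
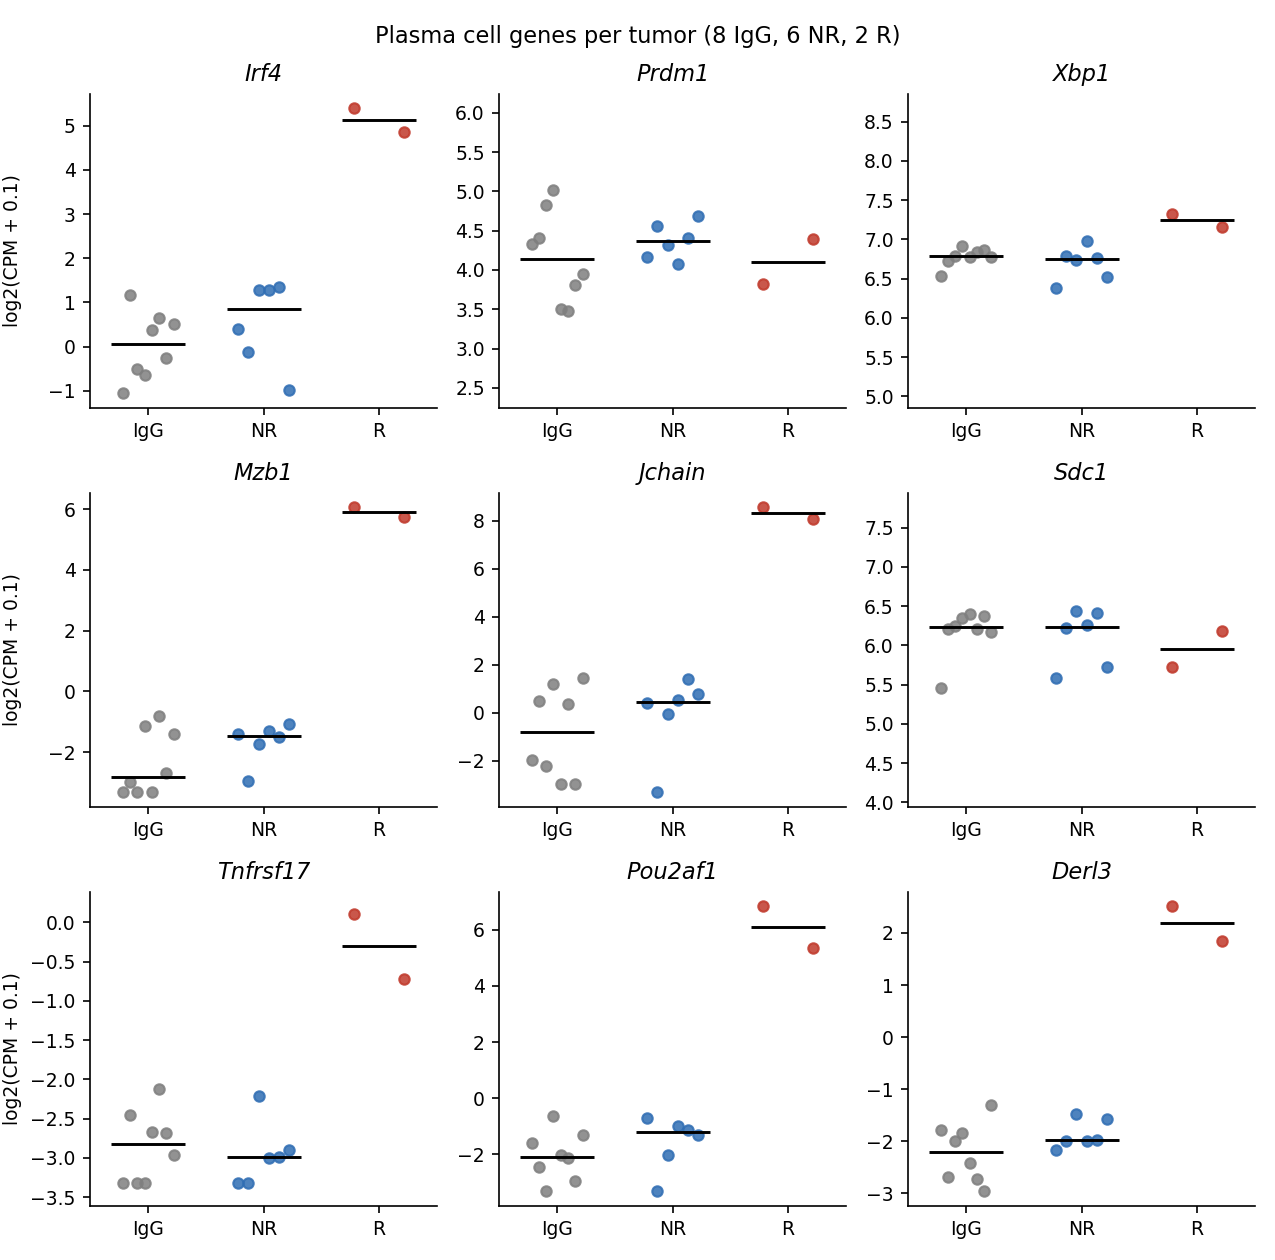
Level of each of the 9 plasma cell genes in every tumor, as log2(CPM + 0.1), with 1 point per tumor for the 8 IgG control (IgG), 6 non-responder (NR) and 2 responder (R) tumors and a line at the group median; each panel has its own axis. The 2 responders lie above all 14 other tumors in 7 panels and within their range for Prdm1 and Sdc1.

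Of the genes of antibody assembly and protein quality control, Jchain encodes the joining chain that links IgM and IgA into polymers. It measured 382 CPM and 269 CPM in responder replicates 15 and 16. In the 8 IgG controls its lowest, median and highest values were 0.0281, 0.659 and 2.604 CPM, and in the 6 non-responders they were 0, 1.28 and 2.54 CPM. No tumor outside the responders reached 3 CPM, and the groups did not overlap. The log2 fold change was 8.00 ± 0.92 (SE) against non-responders (edgeR, adjusted p = 1.1e-05) and 8.39 ± 0.83 against IgG controls (adjusted p = 1.6e-06). Mzb1, an endoplasmic reticulum protein that assists folding and secretion of immunoglobulin heavy chains, measured 67.5 and 54.0 CPM in the responders. In the IgG controls it measured 0 at the lowest, 0.0418 at the median and 0.467 at the highest, and in the non-responders 0.0304, 0.266 and 0.373 CPM. It was at 0 counts in IgG control replicates 1, 3 and 5, where 3 counts would be 0.114, 0.112 and 0.0860 CPM. The log2 fold change of Mzb1 was 7.96 ± 0.74 against non-responders (edgeR, adjusted p = 9.8e-07). Derl3, a derlin of the pathway that removes misfolded proteins from the endoplasmic reticulum, was much lower in level, at 5.65 and 3.52 CPM in the responders. It ranged from 0.0281 to 0.305 CPM, or 1 to 11 counts, in the other 14 tumors, and its log2 fold change was 4.65 ± 0.51 against non-responders (edgeR, adjusted p = 5.2e-06).

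Of the surface proteins, Tnfrsf17 encodes BCMA, the receptor through which long-lived plasma cells receive survival signals from APRIL and BAFF. It gave 33 counts (0.976 CPM) in responder replicate 15 and 18 counts (0.506 CPM) in replicate 16, against 0 to 5 counts in the other 14 tumors, 5 of which were at 0. It was thus near the limit of detection in the responders and at that limit elsewhere. Its log2 fold change of 4.32 ± 0.88 against non-responders passed the test (edgeR, adjusted p = 0.0019) but did not without responder replicate 15 (3.71, adjusted p = 0.089), and it was 5.16 without non-responder replicate 11, which holds 4 counts. Against IgG controls it was 3.88 ± 0.79 (adjusted p = 0.0015), and 3.27 without replicate 15 (adjusted p = 0.095). Sdc1 encodes syndecan-1 (CD138), the surface proteoglycan used to sort plasma cells. It measured 53.0 and 72.3 CPM in the responders. In the IgG controls its lowest, median and highest values were 43.9, 74.9 and 84.1 CPM, and in the non-responders 47.8, 75.3 and 86.4 CPM. Both responders lay inside the range of the other tumors, and the log2 fold change was -0.17 ± 0.24 against non-responders (edgeR, adjusted p = 0.70). The 3 lowest Sdc1 values of the 14 other tumors, 43.9, 47.8 and 52.8 CPM, belonged to the 3 tumors of highest mitochondrial share. Without those 3 tumors, an alternative chosen after seeing the data, Sdc1 was lower in the responders by -0.42 against non-responders (adjusted p = 0.016) and by -0.36 against IgG controls (adjusted p = 0.017) on the log2 scale.

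Of the transcriptional regulators, Pou2af1 encodes OBF-1, the coactivator of Oct proteins at immunoglobulin promoters. It measured 116 and 40.8 CPM in responder replicates 15 and 16 and at most 0.540 CPM in the other 14 tumors. Its log2 fold change of 8.05 ± 0.68 against non-responders (edgeR, adjusted p = 3.8e-07) exceeded those of Jchain and Mzb1 by less than its standard error. Without responder replicate 15 it was 7.05, below Jchain at 7.66 and Mzb1 at 7.72. Against IgG controls Pou2af1 was at 8.71 ± 0.63, and 7.70 without replicate 15. Irf4 measured 42.3 and 28.7 CPM in the responders. Its lowest, median and highest values were 0.380, 0.968 and 2.16 CPM in the IgG controls and 0.406, 1.77 and 2.47 CPM in the non-responders. The log2 fold change of Irf4 was 4.47 ± 0.54 against non-responders (edgeR, adjusted p = 1.5e-05) and 5.06 ± 0.50 against IgG controls (adjusted p = 1.0e-06).

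Xbp1 was abundant in every tumor. It measured 161 and 143 CPM in the responders, 92.7, 110 and 121 CPM at the lowest, median and highest of the IgG controls, and 83.6, 107 and 126 CPM in the non-responders. The responders lay above all other tumors, but by a small margin. The log2 fold change was 0.54 ± 0.14 against non-responders (edgeR, adjusted p = 0.0091) and 0.46 ± 0.13 against IgG controls (adjusted p = 0.016). Without responder replicate 15 neither value passed, at 0.38 (adjusted p = 0.32) and 0.30 (adjusted p = 0.42), and without replicate 16 the value against IgG controls was 0.49 (adjusted p = 0.060). Prdm1 measured 14.04 and 20.9 CPM in the responders, from 11.1 to 32.2 CPM in the IgG controls and from 16.8 to 25.8 CPM in the non-responders. Its log2 fold change was -0.25 ± 0.35 against non-responders (edgeR, adjusted p = 0.69) and -0.13 ± 0.34 against IgG controls (adjusted p = 0.83), and the groups overlapped.

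**Figure D2:**
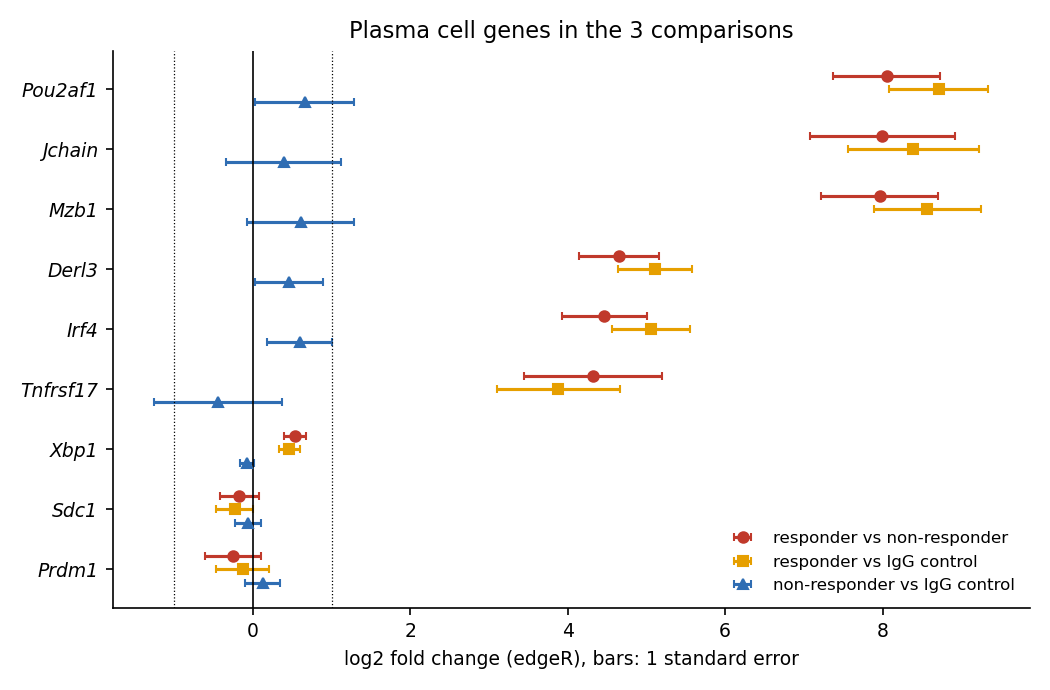
Log2 fold change of the 9 plasma cell genes in the 3 comparisons (edgeR), with bars of 1 standard error and dotted lines at a log2 fold change of 1 in either direction. In all, 6 genes lie beyond 3 in both responder comparisons, Xbp1 lies between 0 and 1, and no gene lies beyond 1 in the comparison of non-responders with IgG controls.

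The second question was whether aPD-1 without a response went with a change of these genes. Between non-responders and IgG controls 0 of 9 genes were called, as were 0.0% of all genes in either direction, with edgeR and, for the 9 genes, also with DESeq2. None of the 9 reached an unadjusted p below 0.05, while 694 of all 18251 genes did. The log2 fold changes ran from -0.44 for Tnfrsf17, which was at -1.27 without non-responder replicate 11, to 0.66 ± 0.63 for Pou2af1, and the smallest unadjusted p was 0.17, for Irf4 at 0.59 ± 0.41. For each of the 9 genes the 2 groups overlapped. The standard errors of Mzb1, Jchain, Tnfrsf17 and Pou2af1, from 0.63 to 0.81 on the log2 scale, leave differences of this size undetectable at the few counts these genes had.

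Levels can be compared between genes only per length, as mean CPM per kilobase of exon. In the mean of the 2 responders Jchain stood highest at 129, followed by Mzb1 at 50.02, Xbp1 at 46.7, Pou2af1 at 30.7, Sdc1 at 16.4, Irf4 at 7.25, Prdm1 at 3.13, Derl3 at 2.30 and Tnfrsf17 at 0.909. The order differed between them at 2 places: in replicate 16 Sdc1 stood above Pou2af1 (19.0 against 16.0), and in replicate 15 Derl3 stood above Prdm1 (2.83 against 2.52). In the other 14 tumors the order was led by Xbp1 at 33.1, Sdc1 at 18.9 and Prdm1 at 3.56, and the other 6 genes lay between 0.428 (Jchain) and 0.0485 (Tnfrsf17). The 3 genes that led there were the 3 that were not called in the responders. Xbp1, Sdc1 and Prdm1 were thus expressed, at levels close to those in the responders, in tumors in which Jchain and Mzb1 were at or near 0.

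The third question was how the plasma cell genes compared with B cell surface genes tumor by tumor. The list of 10 B cell surface genes included Ms4a1 (CD20), Cd79a, Cd79b, Cd22, Cd72, Cr2, Fcer2a, Tnfrsf13c and Fcrl1. Of the list, 9 of 10 were called higher in the responders than in the non-responders, where 12.5% of all genes were. Among them were Cd79b at a log2 fold change of 6.14 ± 0.42 and Cd79a at 8.18 ± 0.68, and the exception was Cd72 at 0.16 ± 0.38. Tnfrsf13c, with at most 12 counts in each other tumor, passed the low-count filter through the 2 responders alone, so its call adds little. Cd72 measured 53.9 to 146 CPM in the 14 other tumors, where the other 9 genes together summed to at most 8.93 CPM, so it was left out of the sums that follow, a choice made after seeing the data. The summed level of the 9 genes was 2.14 to 8.93 CPM in the IgG controls, 2.61 to 7.48 CPM in the non-responders, and 1378 and 359 CPM in responder replicates 15 and 16. The summed level of Mzb1, Jchain, Tnfrsf17, Pou2af1 and Derl3 was 572 and 368 CPM in the same responders and at most 3.52 CPM elsewhere. Of the B cell transcription factor list (Pax5, Ebf1, Bach2, Bcl6, Spib, Irf8 and Ciita), 6 of 7 were called higher against non-responders, beside the same 12.5% of all genes. Their log2 fold changes ran from 1.18 for Ebf1 to 6.86 for Pax5, the factor that Prdm1 protein represses in plasma cells. Bcl6 was at 0.35 ± 0.31.

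**Figure D3:**
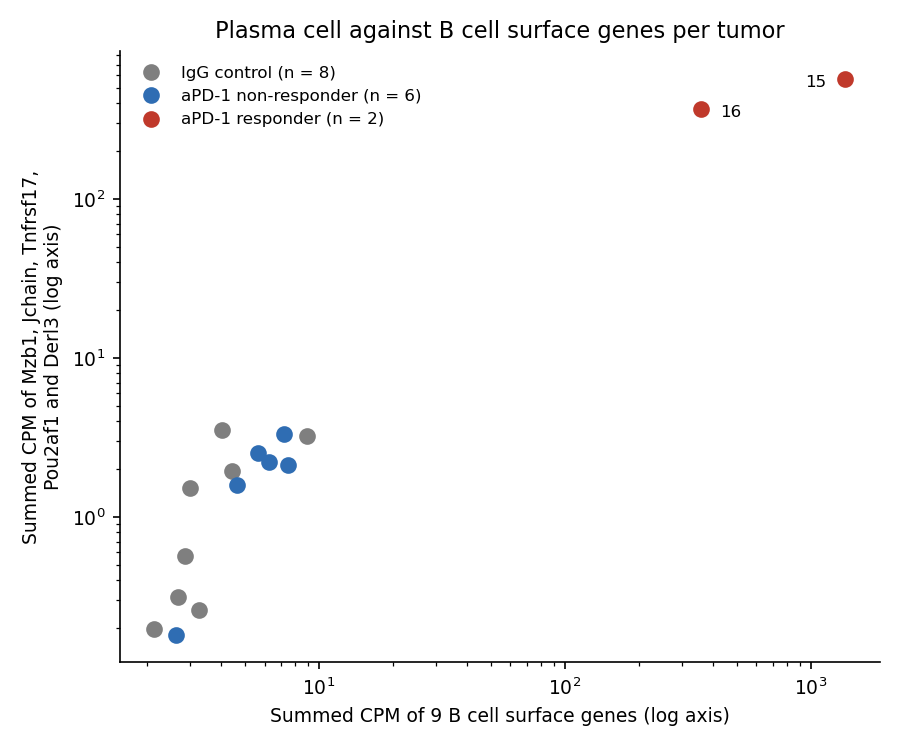
Summed CPM of 5 plasma cell genes (Mzb1, Jchain, Tnfrsf17, Pou2af1, Derl3) against summed CPM of 9 B cell surface genes (Cd72 left out), 1 point per tumor, both axes logarithmic; numbers name the responders. The responders differ more along the B cell axis (1378 against 359 CPM) than along the plasma cell axis (572 against 368 CPM), and the 14 other tumors lie below 10 CPM on both axes.

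The 2 responders differed from each other, and by different amounts for the 2 gene groups. As CPM in replicate 15 over CPM in replicate 16, the 9 B cell surface genes gave ratios from 3.27 (Cd22) to 5.45 (Cr2), with a median of 3.72. Mzb1 gave 1.25 (95% exact interval 1.18 to 1.33), Jchain 1.42 (1.38 to 1.46), Irf4 1.47 (1.36 to 1.60) and Derl3 1.61 (1.28 to 2.03). Each of these 4 intervals lies below the lowest interval among the 9 B cell surface genes, 3.12 to 3.43 for Cd22. Only 3.64% of 16938 genes had a ratio at or above that of Cd22, so lying below it does not set these 4 apart from most genes. Pou2af1, which B cells also express, gave 2.83 (2.67 to 3.01), above those 4 genes and below Cd22. Tnfrsf17 gave 1.93 with an interval from 1.05 to 3.64 that covers the ratios of those 4 genes, of Pou2af1 and of Cd22, Ms4a1 and Cd79b (3.27, 3.39 and 3.42), but not the B cell surface median. Xbp1 gave 1.13, Sdc1 0.733 and Prdm1 0.672, and all genes with at least 20 counts in the 2 responders had a median ratio of 1.02. The intervals cover counting error only and compare 2 libraries, not conditions, since neither tumor has a replicate of its own.

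**Figure D4:**
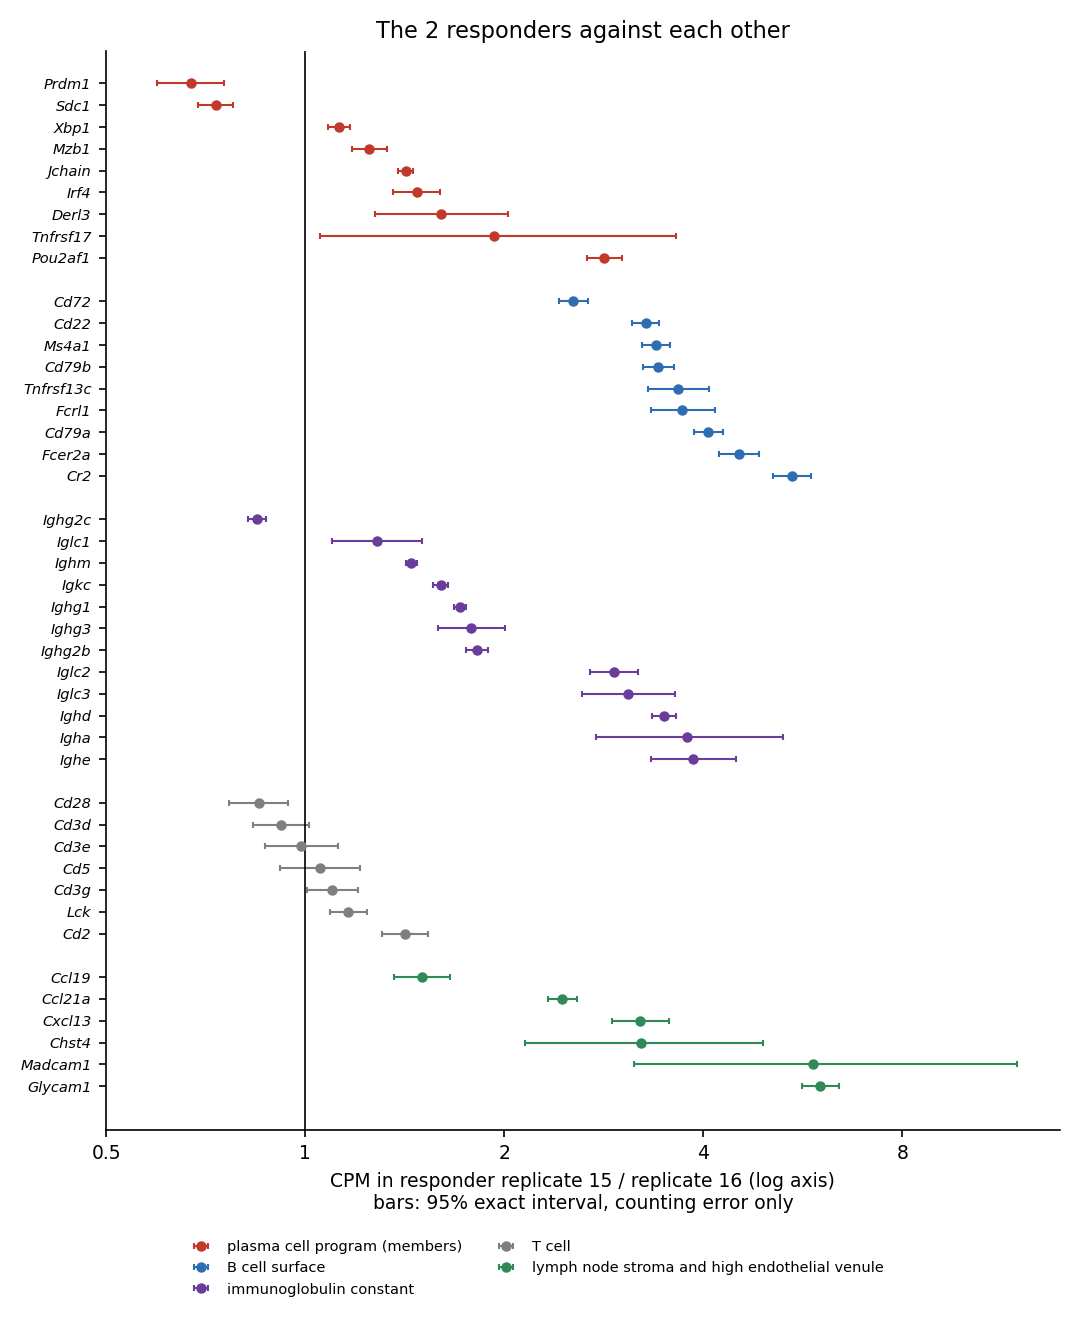
CPM in responder replicate 15 divided by CPM in responder replicate 16 for genes of 5 lists, on a logarithmic axis, with 95% exact intervals that cover counting error only. The B cell surface genes lie at 2.55 (Cd72) to 5.45, the plasma cell genes at 0.672 to 2.83, and the T cell genes at 0.850 to 1.42.

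The immunoglobulin constant genes, the product that plasma cells secrete and B cells carry on their surface, fell on both sides of this split. All 12 were called higher in the responders than in the non-responders (12.5% of all genes were), with a median log2 fold change of 7.32. Igha nevertheless overlapped between those groups (2.92 ± 0.81, edgeR, adjusted p = 0.017). Iglc1, Iglc3, Ighe and Ighg3 passed the low-count filter through the 2 responders alone, so their calls add little to this count. Ighd, the heavy chain that naive B cells carry and plasma cells rarely make, measured 272 and 77.8 CPM in replicates 15 and 16, a ratio of 3.49 (3.35 to 3.64) within the range of the B cell surface genes. Ighm measured 647 and 447 CPM, a ratio of 1.45 (1.42 to 1.48) next to that of Jchain. The switched isotypes Ighg1 and Ighg2b gave 1.71 and 1.82. Of the light chains, Igkc gave 1.60 and Iglc1 1.28, while Iglc2 gave 2.93 (2.70 to 3.18) and Iglc3 3.08 (2.63 to 3.63), nearer to the B cell surface genes. Ighg2c was the exception below 1, with 218 CPM in replicate 15 against 258 in replicate 16, a ratio of 0.846 (0.821 to 0.873). Ighe, at 24.9 and 6.44 CPM, gave 3.86 (3.33 to 4.49), within the range of the B cell surface genes. Igha, lower at 5.32 and 1.41 CPM, gave 3.78 (2.75 to 5.29). Constant genes are near copies of each other in part, and expected counts divide shared reads among them, so values of single subclasses are less certain than those of the 9 plasma cell genes.

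Counted within a tumor, a ratio of Jchain to B cell surface counts does not depend on the scaling. It was 0.277 (0.272 to 0.283) in responder replicate 15 and 0.751 (0.731 to 0.771) in replicate 16. In the IgG controls it ranged from 0.0108 in replicate 5 to 0.648 (0.495 to 0.846) in replicate 8, and in the non-responders from 0 in replicate 10, where 0 Jchain counts beside 86 B cell surface counts allow up to 0.0438, to 0.354 in replicate 13. Replicate 15 thus lay inside the range of the 14 other tumors, while replicate 16 lay above them all, with an interval that overlaps that of IgG control replicate 8. In 4 IgG controls, replicates 1, 3, 5 and 7, and in non-responder replicate 10, Jchain held at most 4 counts while B cell surface genes summed to 75 to 93 counts.

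Among the 14 tumors that were not responders, a slope of each gene on the mean log2 CPM of a cell type list was fitted with group as a covariate. Of the 9 genes 6 had enough counts to be tested, and Mzb1, Tnfrsf17 and Derl3 did not. On the level of the B cell surface list 0 of 6 genes passed, as did 0.0% of all 15940 genes. The largest slopes were those of Jchain, 2.10 ± 0.79 (unadjusted p = 0.018), and Pou2af1, 1.70 ± 0.45 (unadjusted p = 0.0018), and both had an adjusted p of 1.00 by edgeR. Without Cd72 the count was 0 again. On the level of the T cell list 0 of 6 passed (0.0% of all genes), and Irf4 had a slope of 1.18 ± 0.47 (unadjusted p = 0.023, edgeR adjusted p = 0.70). On the level of the keratinocyte list 0 of 6 passed (0.0125% of all genes), and Prdm1 had a slope of -0.18 ± 0.072 (unadjusted p = 0.025, edgeR adjusted p = 0.63). These slopes failed the correction and were not called.

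Other genes of the plasma cell program moved in part. Of 8 further plasma cell genes 4 were called higher in the responders than in the non-responders (12.5% of all genes were), with a median log2 fold change of 1.02. Eaf2, a partner of the elongation factors that favour secretory immunoglobulin transcripts, measured 10.6 and 5.85 CPM in the responders and at most 0.574 CPM elsewhere (log2 fold change 4.92 ± 0.46). Txndc5, a disulfide isomerase abundant in plasma cells, had the highest level of the list but a log2 fold change of 0.04 ± 0.10, at 233 and 229 CPM in the responders and 202 to 263 CPM in the other tumors. Fkbp11, a peptidyl-prolyl isomerase of secretory cells, fell by 0.64 on the log2 scale (edgeR, adjusted p = 0.047), as did 4.34% of all genes with no limit on size, and its fall of 0.64 against IgG controls also passed (adjusted p = 0.036; 5.17% of all genes). Of 14 genes of the unfolded protein response, the pathway through which Xbp1 is activated, 0 were called and 2 passed the adjusted p upward: Edem1 at 0.56 ± 0.12 and Dnajb9 at 0.51 ± 0.16. Over all genes 15.4% passed upward in that comparison, a share close to 2 of 14. The median was 0.10, Hsp90b1, the most abundant, was at -0.07 ± 0.13, and the lowest was Ssr4 at -0.35 ± 0.13 (adjusted p = 0.057).

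Of 8 genes of the plasma cell niche and survival 3 were called higher against non-responders (12.5% of all genes were), with a median of 1.29. Tnfrsf13b (TACI), a second receptor for APRIL and BAFF, was at 2.64 ± 0.30, and Cxcl12, a chemokine of plasma cell niches, at 3.43 ± 0.86. Il21, a T cell cytokine that drives plasma cell differentiation, gave 36 and 27 counts in the responders and 0 or 1 count in each of the other tumors. It passed the low-count filter through the responders alone, so its call adds little to this count. Of the ligands of these receptors, Tnfsf13b (BAFF) was at -0.06 ± 0.36 and Tnfsf13 (APRIL) at 0.58 ± 0.25 (edgeR, adjusted p = 0.12), and neither passed the test in that comparison. Against IgG controls Tnfsf13 passed the adjusted p at 0.77 ± 0.24 (edgeR, adjusted p = 0.025) but was not called. It measured 5.17 and 5.82 CPM in the responders and 2.43 to 4.84 CPM in the other 14 tumors. Mcl1, a survival protein of plasma cells and the most abundant of this list, was at 0.26 ± 0.11. Of 9 paralogs of the plasma cell genes 8 could be tested and 1 was called, Irf8 at 1.37 ± 0.24, a factor of B and myeloid cells. That count is near the 12.5% of all genes called higher. Derl1 and Derl2 were at -0.12 ± 0.14 and -0.09 ± 0.11 where Derl3 was at 4.65, and Sdc2, the most abundant, was at -0.44 ± 0.24.

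Some marker lists of other cell types, though not all, moved with the plasma cell genes, and their part in the results was not tested. They include genes of lymph nodes and of epithelium, and transcripts of the tumor and of adjacent tissue taken with it cannot be told apart in these counts, for the plasma cell and B cell genes as well. All 7 T cell genes were called higher against non-responders (median 3.55), with a summed level of 199 and 181 CPM in the 2 responders, 7.53 to 19.1 CPM in the IgG controls and 10.7 to 28.6 CPM in the non-responders. All 6 lymph node stroma genes and genes of high endothelial venules, the vessels through which lymphocytes enter lymph nodes, were called higher (median 6.96), with a summed level of 423 and 130 CPM in responder replicates 15 and 16 and at most 4.58 CPM elsewhere. Their ratios between replicates 15 and 16 ran from 1.501 (Ccl19) to 6.01 (Glycam1), where those of the T cell genes ran from 0.850 to 1.42. Of the 6, Chst4 had means of 0.00844 CPM in the non-responders and 0.0162 CPM in the IgG controls. It passed the low-count filter through the 2 responders alone. Of 5 simple epithelium genes 4 were called higher (median 5.61), with a summed level of 50.4 to 116 CPM in the responders and 4.43 to 11.9 CPM elsewhere. Of 5 plasmacytoid dendritic cell genes, a type that shares Irf8 and Spib with B cells and can be rich in Derl3, 3 were called higher and Cox6a2 lower, and Siglech reached 8.22 and 5.65 CPM in the responders against at most 0.738 CPM elsewhere. Of 6 macrophage genes 1 was called (Mrc1 at 1.65 ± 0.50), and of 6 keratinocyte and 5 skeletal muscle genes 0 were called and 0 passed the adjusted p. Over all genes 12.5% were called higher and 0.663% lower against non-responders.

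The genes whose log2 CPM followed each plasma cell gene most closely across the 14 tumors that were not responders, with group means removed, were listed by Pearson's r as a description. Each is the best of a search through very many genes in few tumors, so r values this high can arise without a link. Sdc1 followed Arf6 (r = 0.990), Dpp3 and Ndfip1, and the 3 tumors of highest mitochondrial share held its 3 lowest values. Xbp1 followed Gabarap (0.955), an autophagy protein, then Spcs3 (0.947), a subunit of the signal peptidase complex, and Ube2j1 (0.945), a ubiquitin-conjugating enzyme of the endoplasmic reticulum. Irf4 followed Clec10a (0.947), a lectin of dendritic cells and macrophages, then Cdc42se1 and Tacr1. Prdm1 followed Proser2 (0.911), R3hdm1 and the stress gene Ddit4 (0.886). Jchain, at 0 to 99 counts in these tumors, followed Fosb (0.810), Rasef and Fcer2a (0.760), the last a B cell surface gene of the list above. Mzb1, Tnfrsf17, Pou2af1 and Derl3 had at most 18 counts in any of these tumors, and their nearest genes, Ccl19 (0.876), Cyc1 (0.906), Lig4 (0.807) and Gzmb (0.857), rest on those few counts.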

How the data were processed

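Bulk RNA-seq of 16 MC38 tumors was used. The authors aligned paired reads from strand-specific poly(A) libraries with STAR 2.6 to GRCm38 and quantified Ensembl release 91 genes with RSEM 1.3.0, and the deposited values are these expected counts, not normalized, with 1 column per tumor. Reads shared by several genes are split between them, so 7.84% of values were not whole, and they were rounded. Rows naming no gene, 92 spike-in sequences with at most 185 counts in a tumor, were left out. Symbols, positions and exon lengths came from GENCODE M21 (GRCm38) and matched 53360 identifiers.

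Tests used edgeR 4.0.16 in R 4.3.3 with TMM scaling, its filter on low counts and robust dispersions in 1 fit of 16 tumors, with Benjamini-Hochberg adjustment over 18251 genes. The standard error is the log2 fold change divided by the root of F. Slopes were fitted over 14 tumors. Where 1 responder was left in a fit, it was assumed to vary like the other groups. Ratios of counts carry 95% exact (Clopper-Pearson) intervals, for genes with at least 20 counts in the 2 responders. No 2 tumors were copies of a library, since chi-square per degree of freedom was at least 19.2 in 120 pairs. On simulated data with 200 changed genes, 69.7% of genes changed 4-fold and 38.4% of those changed 2-fold passed between 2 and 6 tumors (17761 genes), with 2.73% of the passing genes unchanged in truth.

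Alternatives were DESeq2 1.42.0, median-of-ratios size factors, unfiltered genes, a minimum of 10 counts in 8 tumors, fits restricted to the groups compared, each tumor left out, and for slopes a prior count of 0.5 in place of 2. Those added after seeing the data left out the 3 tumors of highest mitochondrial share, or Cd72. The 9 genes and the 15 lists were chosen with earlier results of these data known. Results for 1 gene of the B cell surface list are not reported singly here. The genes named are the 9, others of the B cell surface and immunoglobulin constant lists, of each other list the most abundant and those of highest and lowest log2 fold change, and the 3 genes most like each of the 9. Derl1, Derl2, Dnajb9, Tnfrsf13b, Tnfsf13, Cxcl12, Ebf1, Epcam, Krt18, Krt19 and Ccl19 were named after their values were seen.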

Additional observations from a re-analysis of the deposited data

Results flagged for a closer look

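Values of the 9 plasma cell genes were searched within the IgG control and non-responder groups for a tumor standing apart from the rest of its group, by the gap to its nearest neighbour relative to the range on the log2 CPM scale. Of 18 groups tested 3 held such a tumor. The rule is set to flag about 1 in 20 groups by chance. That rate need not hold for genes near 0 counts or for genes that vary together, so 3 of 18 is not read as an excess. Non-responder replicate 10 stood low for Mzb1, at 0.0304 CPM against 0.202 to 0.373 CPM in the other 5 non-responders. The same tumor stood low for Jchain, at 0 CPM against 0.864 to 2.54 CPM. IgG control replicate 1 stood low for Sdc1, at 43.9 CPM against 71.9 to 84.1 CPM in the other 7 IgG controls, and it also had the highest mitochondrial share of the 16 tumors, 7.60%. Its part in the Sdc1 value was not tested beyond leaving the 3 tumors of highest share out.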

How the results depend on the processing

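The count of 6 called genes in each responder comparison held under DESeq2, other size factors, no filter, a fit of 2 groups and without the 3 tumors of highest mitochondrial share. It was 3 in both comparisons with at least 10 counts in at least 8 tumors, where only 6 of the 9 genes were tested, and 5 to 6 when a tumor was left out, with 5 without responder replicate 15, where Tnfrsf17 was lost. Between non-responders and IgG controls it was 0 under every alternative run, as were the 3 counts of slopes. Directions reversed only for values that did not pass: Prdm1 against IgG controls ran from -0.50 to 0.056 when a tumor was left out, above 0 without IgG control replicate 4 (0.018) and without responder replicate 15. Between non-responders and IgG controls Sdc1 ran from -0.13 to 0.029, above 0 without non-responder replicates 9 and 14, and was 0.052 without the 3 tumors of highest mitochondrial share, where Xbp1 became 0.0071. Xbp1 against IgG controls was 0.42 without the filter (adjusted p = 0.052), and the cause was not tested. No paired analysis was possible because the groups share no replicate numbers. With 2 responders and few counts outside them, depth limits Tnfrsf17, Derl3, Mzb1 and Pou2af1 in the 14 other tumors.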
